A study of Mus musculus with 6 samples.

Results

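The genes described here are 8 neighbours on mouse chromosome 2, in the order Vps39, Tmem87a, Ganc, Capn3, Zfp106, Snap23, Lrrc57 and Haus2. Capn3 and Tmem87a were chosen because both were strongly higher in Med23 knockout cells, and the other 6 were taken as their neighbours in gene order. Every probe set that the platform annotation gives to 1 of these symbols alone was used, which came to 21 of 45037 probe sets, for 8 of 18193 measured genes. The values of Capn3 and Tmem87a are therefore given as a description, with no test. The fold changes of the other genes played no part in the choice of Capn3 and Tmem87a.

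RNA of mouse ES (embryonic stem) cells, strain 129SV, was measured on Affymetrix arrays, with 3 wild-type arrays and 3 arrays of MED23 knockout cells. Both groups were kept in regular ES culture and received fresh complete ESC medium for 24 hours before harvest. The sources used here do not say how the knockout was made or from how many clones. The labels call the replicates of each group biological.

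Capn3 encodes calpain 3, a calcium-dependent cysteine protease that is best known from skeletal muscle, where it binds titin and where its loss causes a limb-girdle muscular dystrophy. Shorter forms of it, read from a start inside the gene, are known from the lens. Tmem87a encodes a membrane protein of the Golgi with a GOLD domain. Med23 is a subunit of the Mediator complex, which links transcription factors, among them ETS factors such as ELK1, to RNA polymerase II.

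The starts of both chosen genes are shown first, together with that of Ganc, because Ganc lies between them. In the RefSeq promoter table (GRCm38.p6), Tmem87a is read on the minus strand and Ganc on the plus strand. Their starts lie 220 bases apart with the starting parts of the gene models overlapping, so that each transcript runs across the start of the other. Capn3 is read on the plus strand and has 2 listed starts, 13316 bases apart. Each line holds the 250 bases before a start, 5′ to 3′ on the strand of the gene, and capitals mark matches to the motifs given after them.

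Tmem87a (chr2:120404117-120404366, minus strand): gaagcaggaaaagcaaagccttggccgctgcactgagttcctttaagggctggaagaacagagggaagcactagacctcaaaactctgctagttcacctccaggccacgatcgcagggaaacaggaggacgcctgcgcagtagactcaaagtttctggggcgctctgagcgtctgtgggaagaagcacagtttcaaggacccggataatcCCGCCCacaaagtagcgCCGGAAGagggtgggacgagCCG

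Ganc (chr2:120403646-120403895, plus strand): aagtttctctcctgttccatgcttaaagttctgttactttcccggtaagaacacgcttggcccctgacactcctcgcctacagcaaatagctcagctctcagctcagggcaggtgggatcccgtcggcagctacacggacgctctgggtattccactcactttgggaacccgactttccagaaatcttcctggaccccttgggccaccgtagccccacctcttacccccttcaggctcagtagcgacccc

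Capn3 first start (chr2:120463343-120463592, plus strand): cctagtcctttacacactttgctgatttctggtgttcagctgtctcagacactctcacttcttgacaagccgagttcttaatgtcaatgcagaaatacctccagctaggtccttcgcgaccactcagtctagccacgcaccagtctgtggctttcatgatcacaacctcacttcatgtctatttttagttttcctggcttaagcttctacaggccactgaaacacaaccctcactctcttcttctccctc

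Capn3 second start (chr2:120476659-120476908, plus strand): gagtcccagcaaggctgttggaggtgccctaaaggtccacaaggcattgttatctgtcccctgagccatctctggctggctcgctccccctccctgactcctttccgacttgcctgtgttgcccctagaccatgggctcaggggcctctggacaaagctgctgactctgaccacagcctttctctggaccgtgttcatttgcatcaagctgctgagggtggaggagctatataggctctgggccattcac

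Windows from 250 bases before to 50 bases after each start, taken from the table for 7 of the 8 genes (all but Vps39), were searched on both strands for 6 motifs. These were the TATA box (TATAAA), the CCAAT box, the GC box (GGGCGG), an E-box (CACGTG), the core bound by ETS factors (CCGGAAG) and the CREB site (TGACGTCA). The Tmem87a window held the ETS core 3 times, from -23 to -17, from -3 to 3 and from 21 to 27 relative to the start, where 0 is the first transcribed base. The last 3 capitals of the Tmem87a line are the first letters of the match that crosses the start. Of 32851 promoters in the table, 8.86% held this motif at least once and 0.213% held it 3 times or more. The share with 3 or more was counted for this motif alone and had not been planned, so no conclusion is drawn from it. The Tmem87a window also held GGGCGG on the opposite strand from -40 to -35, a motif in 35.7% of all promoters. The Ganc window and both Capn3 windows held none of the 6 motifs. These matches describe letters in a reference sequence and are not measured binding sites.

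The windows also differed in CpG pairs, which were counted because CpG-rich starts are typical of broadly expressed genes. Tmem87a had 15 CpG pairs in 300 bases and Ganc had 14, whereas the first Capn3 start had 6 and the second had 4, against a median of 7.0 over all promoters. Snap23 had 25. The 3 listed Lrrc57 starts had 16 to 29 and the 2 Haus2 starts 23 and 24, and these 2 genes also start close to each other on opposite strands. Both Haus2 windows and all 3 Lrrc57 windows held GGGCGG, as did that of Zfp106. CCAAT, present in 37.4% of all promoters, was found in the windows of Zfp106 and Snap23. TATAAA (13.6% of all promoters), CACGTG (7.15%) and TGACGTCA (1.79%) were found in none of the searched windows.

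A few facts of the whole data set bear on every value. The median over all probe sets, called the array-wide median here, was 4.62 on the log2 scale. No detection calls were used, and a signal beneath this median was treated as not separable from background, an assumption that was not tested. Fold sizes that rest on such a signal are taken as rough. Wild-type replicate 1 stood apart, and 752 of its probe sets read 2-fold or more under the average of the other 2 wild-type arrays. Med23 was 8.95, 8.86 and 8.84 in the wild-type arrays and 7.40, 7.37 and 7.33 in the knockout arrays, so the targeted gene was lower in every knockout array. The sources used here do not say where its probe set lies relative to the deleted part, and its signal remained above the array-wide median. Of 10 ES cell markers, all were above the median in both groups, among them Pou5f1 (12.96 against 12.92), Nanog (11.54 against 11.78) and Sox2 (11.84 against 11.92), which did not pass the limma test described below. By that test Fbxo15 (11.16 to 12.16) and Klf2 (11.44 to 12.05) were higher in the knockout and Tdgf1 (13.04 to 12.76) was lower, and of these 3 calls that of Fbxo15 alone held when each array was left out in turn.

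Capn3 was read by 2 probe sets. On the brighter one, 1426043_a_at, it was 3.56, 3.07 and 2.72 (log2) in the wild-type arrays and 7.02, 7.29 and 7.27 in the knockout arrays. The groups were far apart, and all 3 wild-type arrays lay below the array-wide median. The group means of 3.12 ± 0.42 and 7.19 ± 0.15 (SD, n = 3 each) gave a log2 fold change of 4.08 ± 0.20 (SE) or 16.9-fold. On the other probe set, 1433681_x_at, Capn3 was 3.78, 3.63 and 3.96 in wild-type and 4.73, 5.44 and 5.02 in knockout arrays. These groups did not overlap either, and the log2 fold change was 1.27 ± 0.18 (SE). Probe sets with the suffix _x_at may hold probes that match other transcripts as well. Because both wild-type means lie in the range treated here as not separable from background, 16.9-fold and 2.42-fold are sizes on the deposited scale only.

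Tmem87a was read by 1 probe set, at 5.35, 5.83 and 5.68 in wild-type and 8.96, 8.78 and 8.76 in knockout arrays. All 6 values lay above the array-wide median, and the highest wild-type array lay well below the lowest knockout array. The group means of 5.62 ± 0.25 and 8.83 ± 0.11 (SD, n = 3 each) gave a log2 fold change of 3.21 ± 0.13 (SE) or 9.27-fold. Leaving out each array in turn gave 3.88 to 4.30 for Capn3 and 3.08 to 3.32 for Tmem87a.

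**Figure D1:**
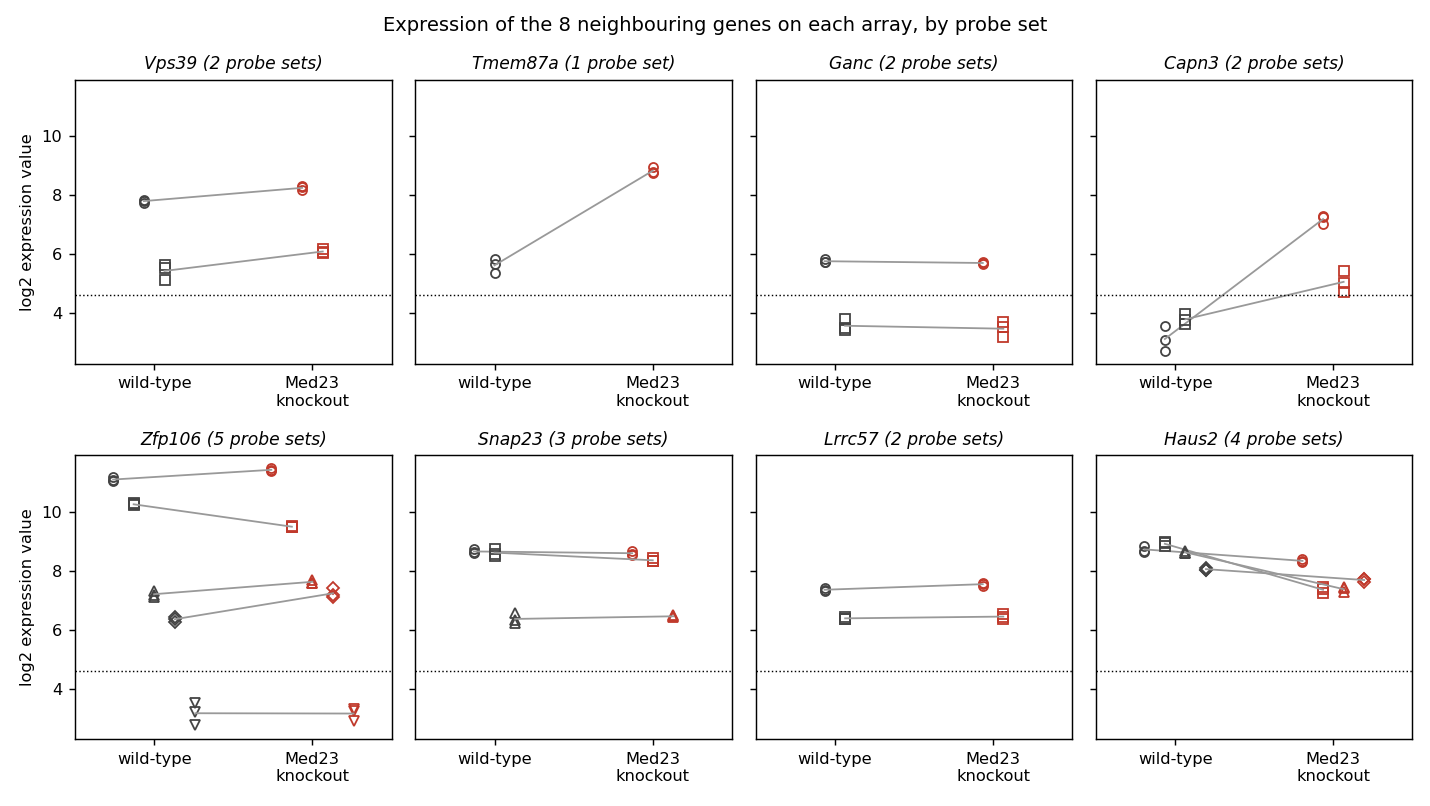
Log2 expression value on each of the 6 arrays for every probe set of the 8 genes, with wild-type arrays in dark grey and Med23 knockout arrays in red. Each symbol shape is 1 probe set, grey lines join the group means and the dotted line is the array-wide median (4.62). Capn3 and Tmem87a separate the groups by far more than the spread within either, Haus2 is lower in the knockout on all 4 probe sets, and Ganc is level.

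Among the 1407 measured genes of chromosome 2, Capn3 had the highest log2 fold change and Tmem87a the second highest, which follows largely from their choice for a strong rise. The next were the eye and brain regulator Pax6 (2.21), Gpat2 (1.92) and Stk35 (1.59), none of which is a neighbour within 40 measured genes. Chromosome 2 as a whole had a median log2 fold change of 0.04, against 0.02 over all genes. At a limma adjusted p under 0.05, 11.7% of its genes were higher and 8.53% lower in the knockout.

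**Figure D2:**
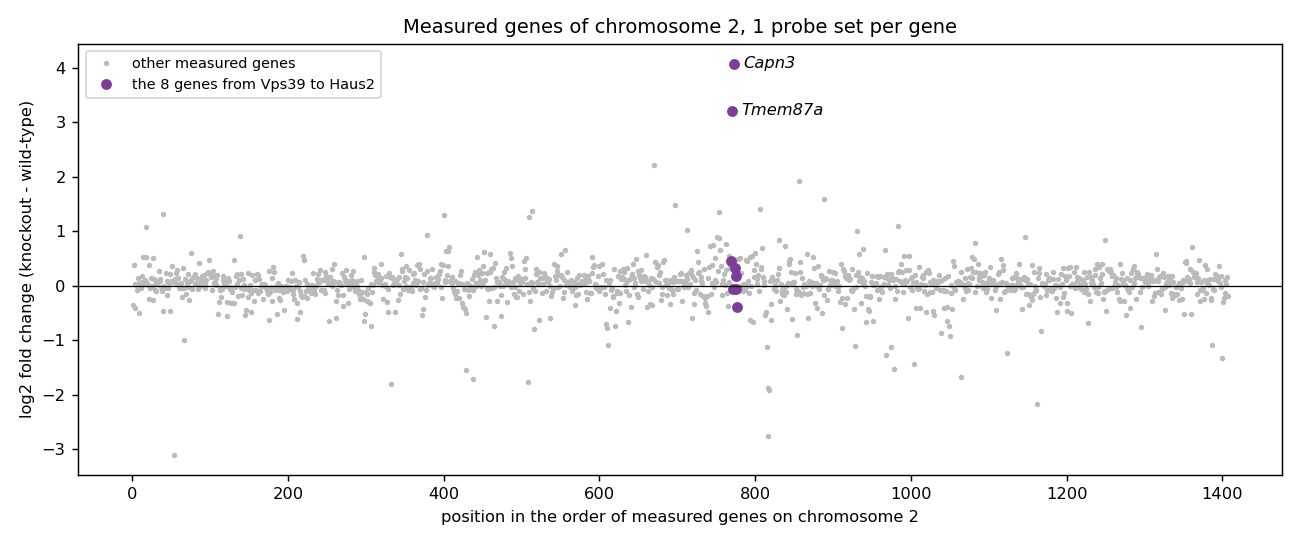
Log2 fold change (knockout minus wild-type) of the 1407 measured genes of chromosome 2 in gene order, with 1 probe set per gene. Purple points are the 8 genes from Vps39 to Haus2; Capn3 (4.08) and Tmem87a (3.21) stand above all other measured genes of the chromosome, while the other 6 lie between -0.39 and 0.45.

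The other 6 genes were compared between the groups with limma, to see how far the rise extends. With the brightest probe set standing for each gene, Vps39 and Zfp106 rose, Haus2 fell, and Ganc, Snap23 and Lrrc57 did not pass the test. Over all genes, 8.53% were called higher and 10.4% lower by the same rule. None of the 6 reached a 2-fold change on its brightest probe set. Of their 18 probe sets, 5 were higher, 5 lower and 8 did not pass, against 6.69% higher and 7.43% lower among all probe sets. The values below follow the order of the genes along the chromosome.

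Vps39, a subunit of the HOPS complex that tethers late endosomes to lysosomes, lies next to Tmem87a. It was 7.82, 7.84 and 7.75 in wild-type and 8.31, 8.18 and 8.27 in knockout arrays. Every knockout array lay above every wild-type array, with a log2 fold change of 0.45 ± 0.07 (standard error; adjusted p = 0.00501, limma), or 1.37-fold. The second probe set, 1425474_a_at, went from 5.43 ± 0.28 to 6.09 ± 0.07 (SD, n = 3), a log2 fold change of 0.66 ± 0.14 (standard error; adjusted p = 0.0197, limma). Its call ended when any 1 knockout array was left out (limma adjusted p = 0.0574, 0.0770 and 0.0613 without replicates 1, 2 and 3). The rise of Vps39 was thus seen on both probe sets and was far smaller than that of Tmem87a beside it.

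Ganc encodes neutral alpha-glucosidase C, an enzyme that splits glucose from glycogen-like chains, and it starts next to Tmem87a on the opposite strand. It was 5.73, 5.83 and 5.72 in wild-type and 5.66, 5.71 and 5.75 in knockout arrays. The groups overlapped, and the log2 fold change was -0.06 ± 0.06 (standard error; adjusted p = 0.650, limma). Its second probe set, below the array-wide median in both groups, gave -0.10 ± 0.16 (standard error; adjusted p = 0.749, limma). The non-coding gene 4931402G19Rik, the only other measured gene between Vps39 and Haus2, overlaps the first start of Capn3 in the gene models. It was 3.41, 3.26 and 3.37 in wild-type and 3.57, 3.48 and 3.48 in knockout arrays. Its log2 fold change was 0.16 ± 0.07 (standard error; adjusted p = 0.195, limma), and all its values lay below the median. Thus neither gene placed between Tmem87a and Capn3 passed the test.

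Zfp106, on the other side of Capn3, encodes a zinc finger protein that binds RNA and is needed for motor neurons and muscle. Its 5 probe sets did not move together. On the brightest, 1425332_at, it was 11.05, 11.09 and 11.18 in wild-type and 11.38, 11.48 and 11.43 in knockout arrays, a log2 fold change of 0.33 ± 0.07 (standard error; adjusted p = 0.0185, limma). That call ended without wild-type replicate 2, knockout replicate 2 or knockout replicate 3 (limma adjusted p = 0.0608, 0.0807 and 0.0735), and when the 5 probe sets were averaged (0.17, limma adjusted p = 0.113). On 1425331_at it was 10.26, 10.23 and 10.29 in wild-type and 9.53, 9.49 and 9.49 in knockout arrays. Here the knockout was the lower group, with a log2 fold change of -0.76 ± 0.06 (standard error; adjusted p = 0.000293, limma), a call that every alternative kept. Of the remaining 3, 1425098_at rose by 0.88 and 1425097_a_at by 0.43, and 1450190_at, below the median in both groups, gave -0.01. The call of 1425097_a_at ended without knockout replicate 1 (limma adjusted p = 0.055).

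The opposite directions within Zfp106 were examined as the difference between 1425331_at and 1425332_at on each array, a pair chosen after the values were seen. This difference was -0.78, -0.86 and -0.89 in wild-type and -1.85, -1.99 and -1.94 in knockout arrays. The groups did not overlap, and the mean difference moved by -1.08 (two-sided exact permutation p = 0.1, the smallest that 3 against 3 arrays allow). A single direction for Zfp106 therefore depends on the probe set. The sources used here do not say which transcripts each probe set reads.

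Snap23 encodes a SNARE protein of the plasma membrane that takes part in exocytosis. On its brightest probe set it was 8.61, 8.64 and 8.74 in wild-type and 8.59, 8.55 and 8.66 in knockout arrays. The groups overlapped, with a log2 fold change of -0.06 ± 0.07 (standard error; adjusted p = 0.621, limma). The probe set 1420897_at had groups that did not overlap, but its log2 fold change of -0.26 ± 0.08 (SE) missed the threshold (limma adjusted p = 0.0748). It passed without wild-type replicate 1 (limma adjusted p = 0.0455), with array weights (0.0325), with an intensity trend (0.0413) and with brighter probe sets only (0.0357). The third, 1420898_at, gave 0.09 ± 0.10 (standard error; adjusted p = 0.629, limma).

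Lrrc57, a gene for a leucine-rich repeat protein, was 7.42, 7.32 and 7.35 in wild-type and 7.58, 7.57 and 7.50 in knockout arrays. The groups did not overlap, but the log2 fold change of 0.19 ± 0.06 (SE) missed the threshold (limma adjusted p = 0.105). It passed when dim probe sets were left out (limma adjusted p = 0.0368). The second probe set gave 0.06 ± 0.07 (standard error; adjusted p = 0.663, limma), with overlapping groups.

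Haus2, which starts beside Lrrc57 on the opposite strand, encodes a subunit of augmin, the complex that seeds new microtubules within the spindle. It fell on all 4 of its probe sets. On 1430577_at it was 8.98, 8.93 and 8.86 in wild-type and 7.25, 7.38 and 7.45 in knockout arrays, a log2 fold change of -1.56 ± 0.08 (standard error; adjusted p = 5.17e-05, limma), or 2.96-fold lower. On 1454112_a_at it was 8.62, 8.60 and 8.68 in wild-type and 7.29, 7.41 and 7.44 in knockout arrays, a log2 fold change of -1.25 ± 0.07 (standard error; adjusted p = 6.96e-05, limma). The groups were well apart on both. The other 2 probe sets fell by less (1439032_at -0.39 and 1432511_s_at -0.37). The call of 1439032_at, the brightest, ended without knockout replicate 1 (limma adjusted p = 0.0614) or knockout replicate 3 (0.0718), while those of the other 3 held in every alternative.

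The size of the Haus2 fall also depended on the probe set. The difference between 1430577_at and 1439032_at, a pair chosen after the values were seen, was 0.13, 0.28 and 0.18 in wild-type and -1.09, -1.01 and -0.84 in knockout arrays. The groups did not overlap, and the mean difference moved by -1.18 (two-sided exact permutation p = 0.1, the smallest possible here).

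**Figure D3:**
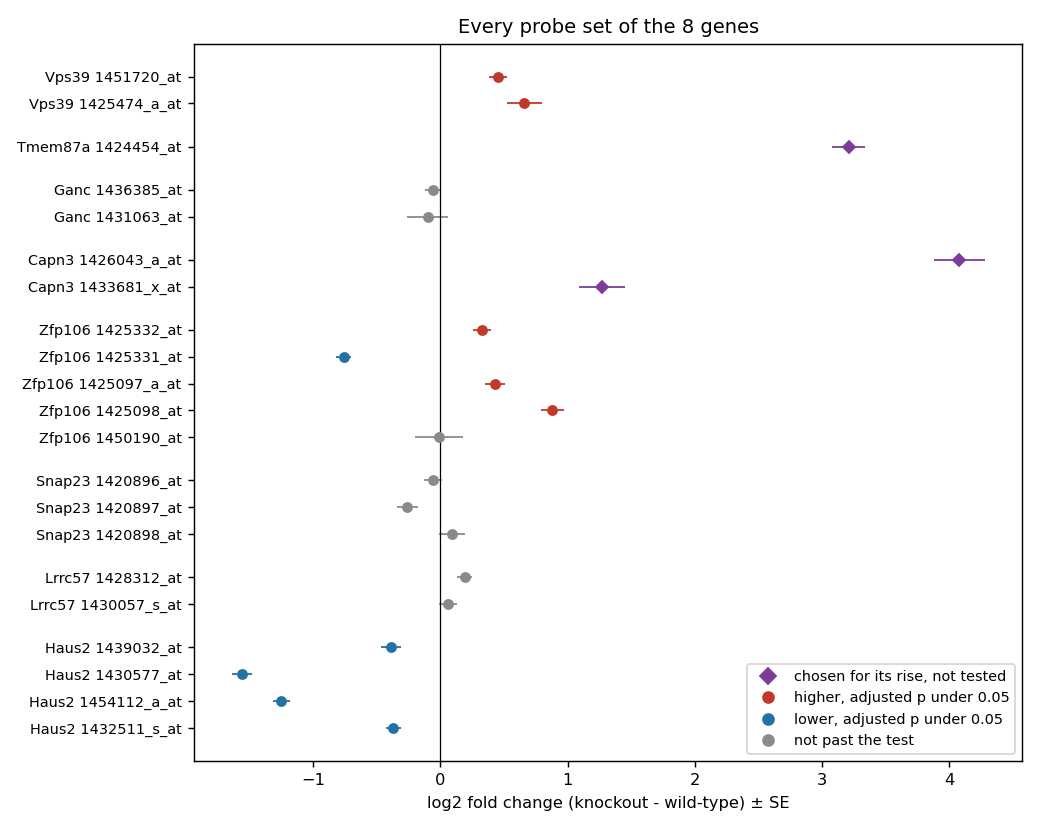
Log2 fold change (knockout minus wild-type) with its standard error for each of the 21 probe sets, grouped by gene in chromosome order. Purple diamonds are the probe sets of Capn3 and Tmem87a, which were not tested; Zfp106 has probe sets on both sides of 0 (-0.76 and 0.88 at the ends), and all 4 of Haus2 lie below 0, from -1.56 to -0.37.

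Of the measured genes directly beside Capn3, Zfp106 was called higher on its brightest probe set and 4931402G19Rik on the other side did not pass. Beyond Zfp106 the next gene, Snap23, did not pass. The run of adjacent higher genes thus held 2 genes, of which Capn3 itself was given by the choice. Tmem87a and Vps39 were separated from this run by Ganc and 4931402G19Rik.

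On brightest probe sets, no rise near the size of those of Capn3 and Tmem87a was seen among the nearest measured genes beyond the 8. On the side of Vps39 these were, in order outward, the phospholipase A2 genes Pla2g4f (log2 fold change 0.32), Pla2g4d (0.07) and Pla2g4e (0.55), the endocytic recycling gene Ehd4 (-0.37), Mapkbp1 (-0.13) and the MAX partner gene Mga (0.76). Pla2g4e rose (limma adjusted p = 0.0215), although from a wild-type mean of 3.63 to a knockout mean of 4.18, both below the array-wide median. Its call ended without wild-type replicate 1 or 2 (limma adjusted p = 0.0515 and 0.0771) or knockout replicate 2 or 3 (0.0839 and 0.0804). Ehd4 fell from 8.55 ± 0.16 to 8.17 ± 0.03 (SD, n = 3; limma adjusted p = 0.0356). That call was kept without wild-type replicate 2 and ended without any other single array (limma adjusted p up to 0.117).

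Mga did not pass on its brightest probe set, where wild-type replicate 1 (7.47) lay apart from replicates 2 (9.03) and 3 (9.29) and the knockout arrays ran from 9.25 to 9.49. On another of its 5 probe sets, 1431232_a_at, Mga was 7.56, 8.92 and 8.96 in wild-type and 7.15, 7.02 and 6.83 in knockout arrays. All knockout arrays were lower there, and the log2 fold change was -1.48 ± 0.36 (standard error; adjusted p = 0.0347, limma). Without wild-type replicate 1 the values were 0.19 on the brightest probe set (limma adjusted p = 0.309) and -1.94 on 1431232_a_at (0.000353). The call of 1431232_a_at ended when any other single array was left out (limma adjusted p up to 0.113). The probe sets of Mga therefore also differed in sign, and the lower one alone passed the test.

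On the side of Haus2 the nearest were the kinesin-like gene Stard9 (log2 fold change 0.49), Cdan1 (-0.06), the tau tubulin kinase gene Ttbk2 (0.51), the non-coding AV039307 (-0.02), the ubiquitin ligase gene Ubr1 (0.23) and Tmem62 (0.02). Ttbk2 was 4.98, 5.12 and 5.29 in wild-type and 5.54, 5.74 and 5.64 in knockout arrays (limma adjusted p = 0.0142). Ubr1 was 8.08, 8.06 and 8.01 in wild-type and 8.26, 8.33 and 8.25 in knockout arrays (limma adjusted p = 0.0484). Both thus rose, by 1.42-fold and 1.17-fold, while Stard9 missed the threshold (limma adjusted p = 0.0665). The Ttbk2 call ended without wild-type replicate 2, knockout replicate 2 or knockout replicate 3 (limma adjusted p = 0.0543, 0.06 and 0.054). The Ubr1 call ended when any single array was left out (limma adjusted p up to 0.17), and its other 3 probe sets did not pass. Over all 24 probe sets of the 12 nearest genes, 3 were higher and 2 lower, where 6.69% and 7.43% of all probe sets were, and the log2 fold changes ran from -1.48 to 0.76.

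In a wider window of 20 measured genes on each side, chosen by gene order alone, 12 of 40 genes were higher (30.0%), 3 were lower (7.50%) and 25 did not pass. The shares over all genes were 8.53% and 10.4%. The median log2 fold change of the 40 genes was 0.10, against 0.02 over all genes. With 10 genes on each side 4 of 20 were higher, and with 40 on each side 23 of 80. The count of 12 fell to 7 without wild-type replicate 2, knockout replicate 2 or knockout replicate 3. The count of 3 lower genes went to 1 without knockout replicate 3, and to 7 when the probe sets of each gene were averaged.

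On their brightest probe sets, only Exd1 of these 40 genes, a piRNA pathway gene and the 16th measured gene from Vps39, passed the test with at least a 2-fold change. It was 5.12, 4.78 and 4.75 in wild-type and 6.30, 6.30 and 6.10 in knockout arrays, a log2 fold change of 1.35 ± 0.12 (standard error; adjusted p = 0.000493, limma). It was smaller than the change of either chosen gene. Genes that did not pass lay between, among them Rtf1 (0.03) and Rpap1 (0.02), but Oip5 (0.65) and Tyro3 (0.29), also between, were called higher. Directly outward of Exd1, Ino80 (0.28, limma adjusted p = 0.0349) and Chac1 (0.90, 0.00454) were called higher as well, and Dll4 (0.07) beyond them did not pass. Exd1, Ino80 and Chac1 thus form a longer run of adjacent higher genes than that at Capn3. This run was named after its values were seen and was not tested with arrays left out.

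**Figure D4:**
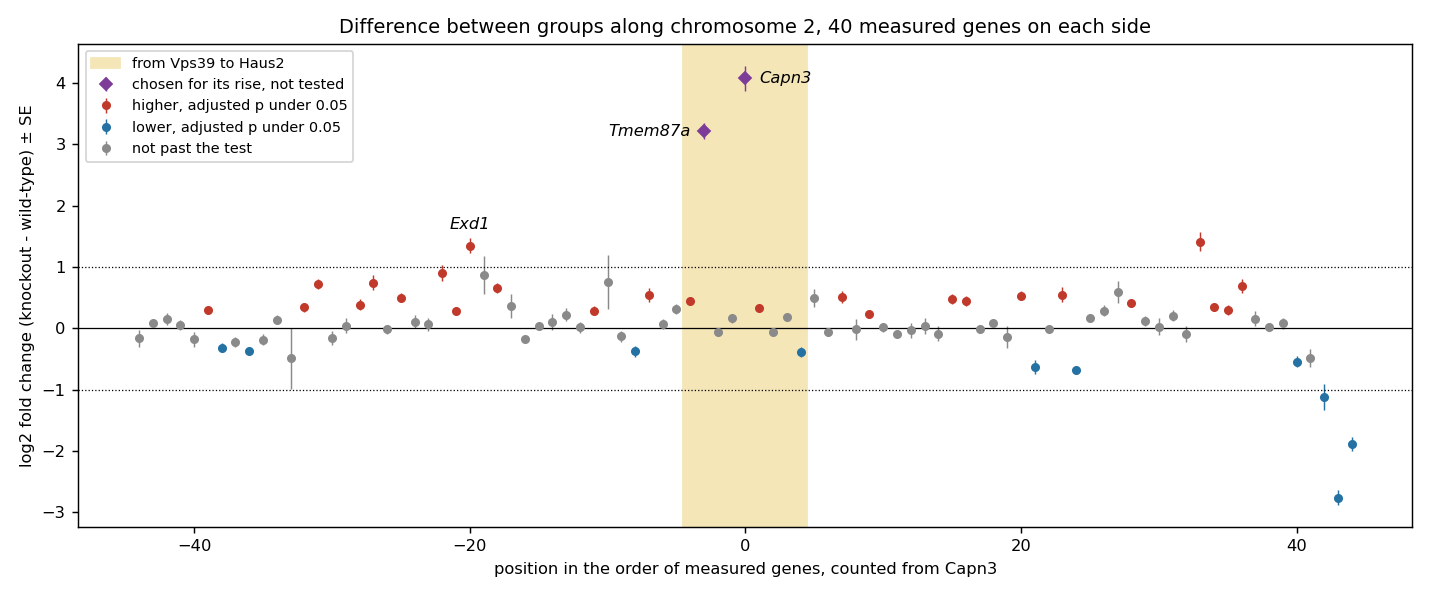
Log2 fold change (knockout minus wild-type) with its standard error for the measured genes in gene order, counted from Capn3, with 40 on each side of the shaded stretch from Vps39 to Haus2. Purple diamonds are the chosen genes, red and blue points passed the limma test and grey points did not; dotted lines mark a 2-fold change. Besides Capn3 and Tmem87a the values run from -2.76 (Spata5l1) to 1.41 (Patl2).

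The relatives and partners of the 8 genes, spread over the genome, were examined next, with 1 probe set per gene. Their counts are to be read against the 8.53% of all genes that were higher and the 10.4% that were lower. The calpain family list also held the calpastatin gene Cast. Of its 15 measured genes other than Capn3, 4 fell (26.7%), none rose and 11 did not pass (median -0.03, against 0.02 over all genes). Capn2, the catalytic subunit of m-calpain, was 9.14, 8.93 and 8.96 in wild-type and 6.83, 6.88 and 6.87 in knockout arrays. Its log2 fold change was -2.15 ± 0.07 (standard error; adjusted p = 1.84e-05, limma), so Capn2 was lower where Capn3 was higher. Capn1 did not pass, with means of 7.34 in wild-type and 7.42 in knockout arrays (log2 fold change 0.09, limma adjusted p = 0.72). Capn10 (-0.60) and the shared small subunit gene Capns1 (-0.55) also fell. So did Capn7 (-0.55), whose call ended in 5 of 6 fits with 1 array left out (limma adjusted p up to 0.123). Of the other 5 measured genes with the GOLD-domain membrane layout of Tmem87a, 2 rose. These were Wls, the carrier of WNT proteins (0.79, limma adjusted p = 0.00192), and Tmem181a (0.41), whose call ended without any 1 of 4 arrays (limma adjusted p up to 0.0795).

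The list for the HOPS and CORVET tethers also held relatives and partners, namely the GTPase genes Rab5a and Rab7 and the genes Vps33b and Vipas39. Of its 12 genes, 4 rose (33.3%) and none fell (median 0.20, against 0.02 over all genes). Beside Vps39 these were Vps33b (0.33), the lysosomal GTPase gene Rab7 (0.32) and Vps41 (0.29). The count ran from 1 to 6 when each array was left out in turn, and without knockout replicate 1 only Vps39 of these 4 kept its call. Of 26 genes of Snap23 and its SNAP and SNARE partners, 4 rose (15.4%), 3 fell (11.5%) and 19 did not pass (median 0.06). The counts ran from 2 to 4 in each direction when each array was left out in turn. In those 6 fits the calls of Napb and Vti1b, both higher, ended 5 and 4 times, and that of Napg, lower, 2 times. Stx3, a syntaxin of apical membranes, fell by 1.23 and its partner gene Stxbp2 by 0.71, while Stx8 rose by 0.48.

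Of 18 augmin and gamma-tubulin genes, 3 fell (16.7%) and 2 rose (11.1%), with a median of 0.04. Beside Haus2, Tubgcp3 and Haus4 fell (-0.72 and -0.39), and Mzt1 and Haus1 rose (0.49 and 0.36). The calls of Haus4 and Haus1 ended without knockout replicate 1 (limma adjusted p = 0.11 and 0.0501), that of Haus4 also without 4 of the other arrays. Among 10 alpha-glucosidase and glycogen genes, Pygb and Myorg fell (-0.53 and -0.49), the glycogen synthase gene Gys1 rose (0.51), and Ganc was among the 7 that did not pass (median -0.10). The calls of Myorg and Gys1 also ended when single arrays were left out (limma adjusted p up to 0.062 and 0.079). The 11.5% lower SNAP and SNARE genes and the 11.1% higher augmin and gamma-tubulin genes lie near the shares over all genes. No relative in these lists rose as far as Capn3 or Tmem87a. This follows largely from the choice of Capn3 and Tmem87a for a strong rise, so no conclusion is drawn from it. On brightest probe sets, Capn3 and Tmem87a had ranks 4 and 7 among the rises of all genes.

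**Figure D5:**
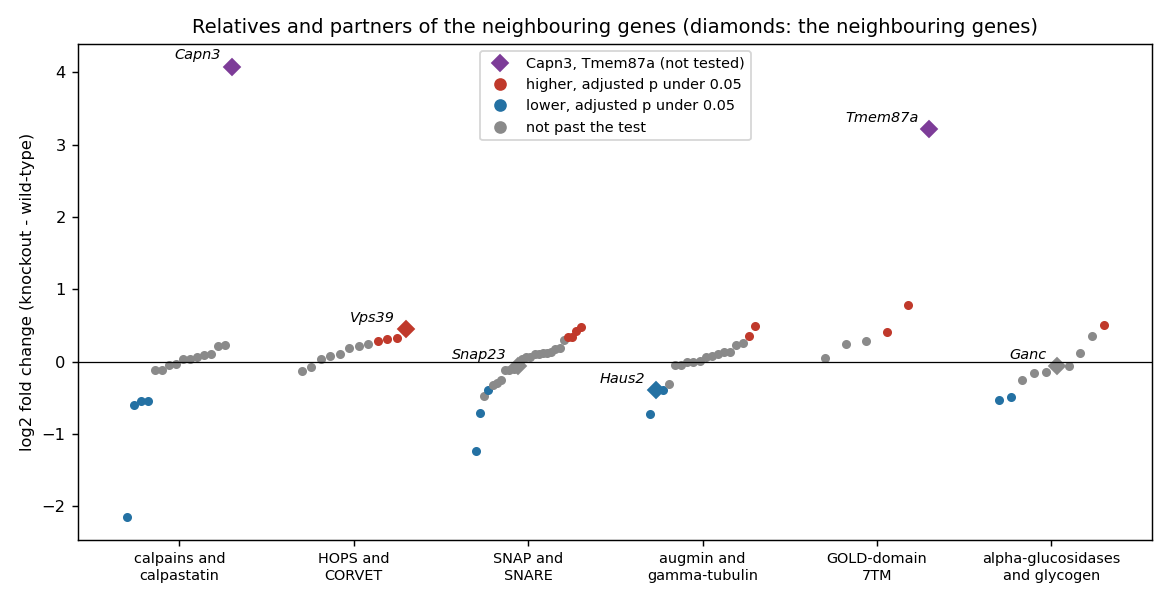
Log2 fold change (knockout minus wild-type) of the measured genes in 6 lists of relatives and partners, 1 point per gene, sorted within each list. Diamonds are the neighbouring genes themselves, purple for Capn3 and Tmem87a, which were not tested; red and blue points passed the limma test, and Capn2 (-2.15) is the lowest.

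Markers of cell types known for Capn3 were read on the same arrays. The counts of these and the later marker lists are also to be read against the 8.53% of all genes that were higher and the 10.4% that were lower. Of 18 skeletal muscle markers, 2 rose (11.1%) and 3 fell (16.7%), with a median of -0.06, and 9 lay below the array-wide median in both groups. The muscle-determining genes Myod1, Myog, Myf5 and Myf6 were among these 9, with knockout means of 3.68, 3.03, 2.32 and 2.67. Ttn, the gene for the calpain 3 partner titin, rose by 1.37 (limma adjusted p = 0.00234), and Actn3 by 0.41. Dysf (-0.73), Mylpf (-0.46) and Acta1 (-0.32) fell. Of these 5 calls, that of Ttn alone held when each array was left out in turn. The mean level of the muscle markers ran from 4.90 to 4.97 over the wild-type and from 4.89 to 4.94 over the knockout arrays.

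Of 9 lens markers, 1 fell (11.1%, near the share over all genes), the small heat shock protein gene Cryab (-2.56), and none rose. Their mean levels were 4.51 to 4.56 in wild-type and 4.35 to 4.40 in knockout arrays. Of 6 melanocyte markers, Mitf and Pmel rose (0.90 and 0.61), while Tyr, Tyrp1, Dct and Mlana lay below the median in both groups. The mean level of that list ran from 4.61 to 4.77 in wild-type and from 4.88 to 4.95 in knockout arrays.

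Markers of other cells that an ES culture can hold were read as well. Of 8 endoderm markers, 6 fell and none rose, and their mean level ran from 6.01 to 6.39 in wild-type and from 4.48 to 4.50 in knockout arrays. Of 7 trophoblast markers 3 fell (42.9%), with mean levels of 6.58 to 6.72 in wild-type and 5.76 to 5.82 in knockout arrays. These 3 were the keratin genes Krt7 (-1.91), Krt8 (-2.52) and Krt18 (-1.67). Cdx2 (-0.27), Eomes (0.41), Hand1 (-0.06) and Elf5 (0.05) did not pass. Of 8 fibroblast markers 1 fell (12.5%, near the share over all genes), with overlapping mean levels of 3.61 to 3.73 and 3.54 to 3.67. This was Thy1 (-0.73), whose call ended in 2 of 6 fits with 1 array left out (limma adjusted p up to 0.0672). The part of these cells in the values of Capn3, Tmem87a and their neighbours was not tested. In bulk RNA, fewer cells of a type and less RNA per cell cannot be told apart.

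The genes most like the chosen ones across the 6 arrays were ranked by Pearson correlation. For Capn3 these were Fmr1nb (r = 0.9998, log2 fold change 0.99), Chn1 (0.9995, 0.59), Hemk1 (0.9994, 1.28), Kbtbd11 (0.9993, 3.92) and Syce1 (0.9993, 0.64). For Tmem87a they were Iqgap2 (r = 0.9991, log2 fold change 1.14), Mageb16 (0.9983, 0.62), Pgrmc1 (0.9980, 0.40), Klhl24 (0.9974, 0.68) and Macrod2 (0.9973, 0.65). The arrays fall into 2 separate groups, so these values mostly reflect a shared difference between the groups. Chn1 and Macrod2 lie on chromosome 2, the other 8 on other chromosomes, and none lies within 40 measured genes of the 8 neighbours.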

How the data were processed

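Total RNA of 6 ES cell cultures was read on Affymetrix arrays as biotinylated cRNA, per the labels' protocols. The deposited table holds log2 values per probe set; its unit was inferred from their range. The submitters' processing notes name RMA and MAS5 with neither role nor version, and no detection calls were used. Arrays were used as deposited, with medians of 4.61 to 4.64. After 64 array controls were left out, 45037 probe sets were tested; 34945 had 1 symbol, 932 several and 9160 none in the platform annotation. Of the former, 34741 matched the RefSeq table of GRCm38.p6, used for symbols and gene order only. The brightest probe set stood for a gene. Groups came from the sample titles.

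Groups were compared by lmFit and eBayes of limma 3.58.1 under R 4.3.3 (two-sided, Benjamini-Hochberg over all probe sets, threshold 0.05), with 4 residual and 3.08 prior degrees of freedom, a procedure tested on simulated data. P-values reflect only how far these cultures varied, and the number of arrays limits the precision. Promoters came from RefSeq and covered 7 of the 8 genes. The members, lists and tests were chosen with earlier results of these data known. Named genes were the 8, the 6 nearest measured genes on each side, and flanking genes within 20 past the test with a 2-fold change. Up to 3 called genes of each list and the 5 genes most like each chosen gene were also named. Some further called list genes, such as Capn7 and Napb, were named after their values were seen. So were the called ES cell, muscle and fibroblast markers and all trophoblast markers. Alternatives were quantile normalization, median centring, a filter on dim probe sets, an intensity trend, array weights, averaged probe sets, the replicate number as a block, other window sizes and leaving out each array.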

Additional observations from a re-analysis of the deposited data

How the results depend on the processing

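On its brightest probe set and on the mean of both, Vps39 kept its direction and its side of the threshold in all alternatives, with log2 fold changes of 0.42 to 0.56. Its second probe set, 1425474_a_at, ran from 0.50 to 0.77 and lost its call in 3 alternatives (limma adjusted p up to 0.077). For Capn3 and Tmem87a, which were chosen for their rise and not tested, the values ran from 2.67, the mean of both Capn3 probe sets, to 4.30 and from 3.08 to 3.32. With the replicate number as a block (replicate block), 1915 probe sets were higher in place of 3013, and the run that contains Capn3 held 1 gene in place of 2, because the brightest Zfp106 probe set missed the threshold (limma adjusted p = 0.0542); averaging probe sets also gave a run of 1. Same-numbered arrays did not deviate together (correlations -0.133, -0.0588 and 0.000831), so these values show no sign of pairing by number. With 3 arrays per group and wild-type replicate 1 standing apart, they cannot exclude it. Leaving out 1 array in turn gave 1497 to 3494 higher probe sets, 7 to 11 higher and 1 to 3 lower flanking genes, 3 to 4 higher genes among the 8 (Capn3 and Tmem87a, fixed by the choice, are 2 of them), 0 to 1 lower, and a run of 1 to 2 that counts Capn3. Windows of 10 and 40 genes a side held 4 and 23 higher and 1 and 9 lower genes, since they hold other numbers of genes; averaging probe sets gave 7 lower genes in place of 3 (the cause was not tested). Only probe sets below the median of all changed sign. Ganc 1431063_at ran from -0.22 to 0.05 and Zfp106 1450190_at from -0.21 to 0.16 when 1 array was left out, and the latter was 0.14 with array weights. Values under the median of 4.62 were treated as not separable from background, which limits the size of the Capn3 change, and 3 arrays per group limit the rest.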

Other observations

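At the far end of the window beyond Haus2, 3 adjacent measured genes, the 38th to the 40th, fell at least 2-fold, and they were singled out after their values were seen. Gatm, the first enzyme of creatine synthesis, went from 4.55 ± 0.41 to 3.43 ± 0.22 (SD, n = 3; limma adjusted p = 0.0124), both below the median of all probe sets. Spata5l1 went from 6.89 ± 0.12 to 4.13 ± 0.21 (log2 fold change -2.76, limma adjusted p = 3.09e-05) and AA467197 from 7.16 ± 0.22 to 5.28 ± 0.08 (-1.88, limma adjusted p = 0.000113). Between them and Haus2, Patl2, the 29th gene and a translational repressor known from oocytes, rose from 8.34 ± 0.32 to 9.75 ± 0.09 (log2 fold change 1.41, limma adjusted p = 0.00137). With 1 probe set per gene, these and Exd1 are the genes among the 80 flanking genes that passed with a 2-fold change. The genes directly after Patl2, B2m (0.35), Trim69 (0.30) and Terb2 (0.69), were also called higher. By these calls, Patl2 and these genes form a longer run of adjacent higher genes than that at Capn3. The length rests on Trim69, whose signal was too dim to separate from background by the rule used here (means of 3.09 in wild-type and 3.4 in knockout arrays). Its call was also close to the threshold (limma adjusted p = 0.0496). Without that call the run would hold Patl2 and B2m alone and be no longer than that at Capn3. The run from Patl2 to Terb2 was not tested with arrays left out.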
